A study of Mus musculus with 26 samples.

Results

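Gene expression in the medial compartment of mouse knee joints 4 weeks after destabilization of the medial meniscus (DMM) was compared with that of unoperated joints at time 0. The 6 arrays of this comparison, 3 for DMM 4 weeks and 3 for time 0, were chosen by the sample titles from the 26 arrays of the study, which cover 9 conditions. All mice were male and of the C57BL/6 strain, with no genetic modification named. DMM joints, in which the medial meniscotibial ligament had been cut at 12 weeks of age, were taken at 16 weeks of age, and time 0 joints were taken at 12 weeks of age with no surgery. The 3 sham pools of week 4, also from mice of 16 weeks of age, had the operation without the ligament cut and are given beside the comparison. Each array held RNA pooled from 3 mice, so the pool is the unit of replication. The block of tissue held cartilage and subchondral bone of the medial tibial plateau and femoral condyle, synovium, joint capsule and ligaments, with the meniscus. The effects of ligament section, of opening the joint and of 4 more weeks of age cannot be told apart between DMM 4 weeks and time 0.

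Cutting the meniscotibial ligament lets the medial meniscus slide out of place, so that load falls on a smaller area of cartilage, and the joint then develops osteoarthritis over weeks. Osteoarthritis is a disease of the whole joint, in which cartilage is lost, the synovium and capsule thicken, fibrous tissue forms and bone grows at the joint margin as osteophytes. Fibroblasts of the synovium and capsule make fibrillar collagens, proteases such as stromelysin and signals that draw in immune cells, while chondrocytes make type II collagen and aggrecan. The tissue block also holds marrow and fat, and in bulk RNA fewer cells of a type and less RNA per cell cannot be told apart.

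The deposited log2 signals of the 26 arrays had medians between 7.898 and 7.949. In a principal component analysis of the 6 arrays, the first component held 59.9% of the variance and placed the DMM pools 1, 2 and 3 at -1.06, -32.8 and -21.3, against 8.62, 24.3 and 22.2 for the time 0 pools 1, 2 and 3. The groups did not overlap on it, and DMM pool 1 lay nearest to time 0. The log2 ratio of the 3′ to the 5′ control probe set of Gapdh, a measure of RNA and labelling quality, was 0.33 to 0.48 in the DMM pools, 0.31 to 0.47 in the sham 4-week pools and 0.21 to 0.28 in the time 0 pools. It did not overlap between DMM and time 0, and, for list counts above 0, the count with this ratio as a covariate is given beside the gene group where it differs. The mean level of 22 skeletal muscle genes was 10.25 to 11.11 in DMM pools and 9.78 to 10.95 in time 0 pools and so overlapped, whereas it was 11.40 to 11.48 in the sham 4-week pools. The markers of the tissues named in the labels were well above the median signal. Mean levels of 7 chondrocyte markers were 11.73 to 12.37 in DMM and 12.22 to 12.43 in time 0 pools. Those of 5 osteoblast markers were 12.02 to 12.45 in DMM and 12.19 to 12.38 in time 0 pools. These ranges overlapped, as did those of muscle, osteoclast, erythroid, neutrophil and B cell precursor markers. The 5 fibroblast and synovial lining markers did not, at 14.29 to 14.72 in DMM and 13.82 to 14.09 in time 0 pools. Nor did 3 fat cell markers, at 10.41 to 10.72 and 11.80 to 12.22. The 3 plasma cell markers did not overlap either, at 11.72 to 11.78 in DMM and 11.11 to 11.41 in time 0 pools. Only a narrow gap separated the 4 macrophage markers, at 11.267 to 11.402 in DMM and 11.120 to 11.263 in time 0 pools. The 4 endothelial markers were at 9.43 to 9.68 in DMM and 9.28 to 9.38 in time 0 pools. The 1 Schwann cell marker tested was lower in DMM pools, at 10.33 to 10.44 against 10.46 to 10.58.

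Of 22513 probe sets tested in limma, 1840 differed between DMM 4 weeks and time 0 at an adjusted p under 0.05 (Benjamini-Hochberg), of which 1441 were higher and 399 lower in DMM joints, and a probe set or gene that passes this threshold is called here. Represented by its brightest probe set, 905 of 11503 genes were higher (7.87%) and 213 were lower (1.85%). The median log2 ratio of DMM to time 0 over all genes was -0.01, that of the higher genes was 0.48 and that of the lower genes was -0.38. There were 106 genes higher and 21 lower by at least 1 on the log2 scale, which is a factor of 2 in signal. The 3 DMM pools lay above the 3 time 0 pools for 2014 genes (17.5%) and below them for 1110 genes (9.65%). Of the called genes, 879 of the 905 higher ones and 205 of the 213 lower ones had pools that did not overlap. Among 461 called genes with more than 1 tested probe set, 0 had a probe set called the other way. The count of called probe sets moved with single pools, to 2950 without DMM pool 1, 658 without DMM pool 2, 753 without DMM pool 3, 2196 without time 0 pool 1, 666 without time 0 pool 2 and 883 without time 0 pool 3. With the Gapdh ratio as a covariate it was 770.

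**Figure D1:**
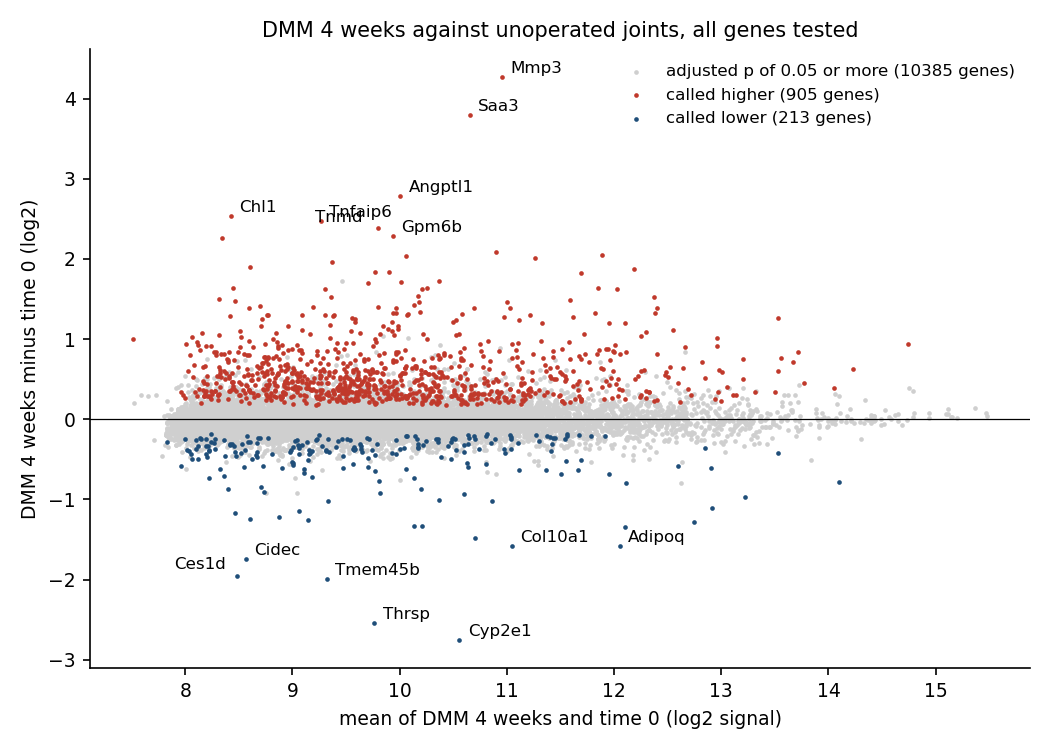
Difference between DMM 4 weeks and time 0 (log2, vertical) against the mean log2 signal of both groups (horizontal) for the 11503 genes tested, each by its brightest probe set. Red points are the 905 genes called higher and blue points the 213 called lower in DMM joints, and the genes of the largest differences are named, with Mmp3 at 4.27 and Cyp2e1 at -2.75.

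The highest ratio was that of Mmp3, which encodes stromelysin-1, a secreted protease that cleaves proteoglycans and other matrix proteins. Its level was 12.02, 14.57 and 12.68 in the DMM pools, 9.68, 9.15 and 10.67 in the sham 4-week pools and 9.21, 8.68 and 8.58 in the time 0 pools (log2 signal), and the lowest DMM pool lay above the highest pool of the other groups. The ratio of DMM to time 0 was 4.27 ± 0.52 (log2 ± SE, 19.2-fold, adjusted p = 0.000113). Saa3, an acute phase serum amyloid A protein that is made by macrophages and stromal cells, had 11.55, 14.76 and 11.35 in DMM pools, 9.75, 8.93 and 10.74 in sham 4-week pools and 8.81, 8.65 and 8.82 in time 0 pools. Its ratio to time 0 was 3.79 ± 0.67 (adjusted p = 0.00156), and DMM pool 2 was far above the other pools of its group. The same pool was also the highest for Tnfaip6, a hyaluronan-binding protein induced in inflammation, with 9.75, 11.83 and 9.93 in DMM pools against 8.18, 7.89 and 8.01 in time 0 pools (ratio 2.47 ± 0.40, adjusted p = 0.000839). Likewise Chl1, a neural cell adhesion molecule, had 8.67, 11.45 and 8.96 in DMM pools against 7.02, 7.21 and 7.26 in time 0 pools (ratio 2.53 ± 0.48, adjusted p = 0.00273). For these genes the 2 other DMM pools also lay above the time 0 pools.

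The other genes of highest ratio included a marker of ligament and a growth factor. Tnmd, which encodes tenomodulin, a membrane protein of tendon and ligament cells, had 10.54, 10.86 and 11.57 in DMM pools, 8.71, 8.20 and 9.47 in sham 4-week pools and 9.10, 8.50 and 8.22 in time 0 pools (ratio to time 0 2.39 ± 0.34, adjusted p = 0.000266). Igf1, the growth factor that promotes matrix synthesis by chondrocytes and fibroblasts, had 12.54, 13.16 and 13.04 in DMM pools, 11.26, 10.41 and 11.54 in sham 4-week pools and 11.27, 10.64 and 10.68 in time 0 pools. Its ratio to time 0 was 2.05 ± 0.27 (adjusted p = 0.000169), and 4 of its 4 tested probe sets were called higher. Angptl1, a secreted protein of the angiopoietin-like family, had a ratio of 2.78 ± 0.40 (adjusted p = 0.000322), but 1 of its 3 tested probe sets was called and their mean ratio was 1.06. The ratio was 2.28 ± 0.26 for Gpm6b, a membrane protein of the proteolipid family, and 2.09 ± 0.28 for Fndc1 (adjusted p = 5.39e-05 and 0.000169). Cxcl5, a chemokine that attracts neutrophils, had 8.34, 11.39 and 8.69 in DMM pools against 7.23, 7.22 and 7.18 in time 0 pools (ratio 2.26 ± 0.56, adjusted p = 0.0155). The call of Cxcl5 was lost without DMM pool 2, without time 0 pools 2 or 3 and with the Gapdh ratio as a covariate. The calls of the 9 other genes of highest ratio were kept whichever of the 6 pools was left out.

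**Figure D2:**
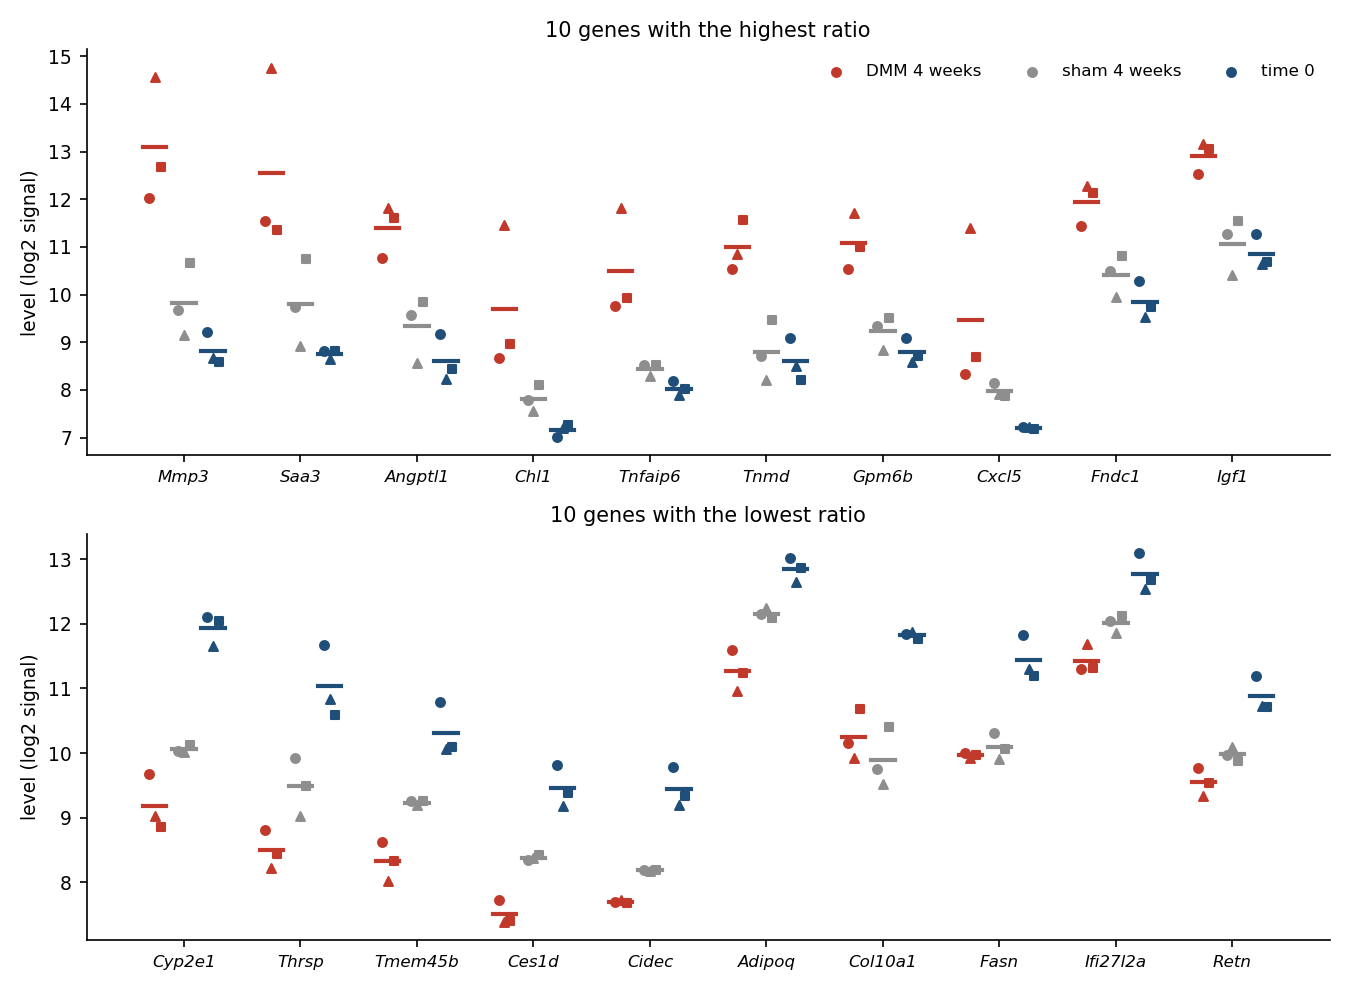
Level (log2 signal, vertical) of the 10 genes with the highest and the 10 with the lowest ratio of DMM 4 weeks to time 0 among called genes. Each point is 1 pool of 3 mice (circle, pool 1; triangle, pool 2; square, pool 3) and each line a group mean, with DMM 4 weeks in red, sham 4 weeks in grey and time 0 in blue. The red triangles of Saa3, Chl1, Tnfaip6 and Cxcl5 stand far above the other red points. Red and blue points do not overlap for any of the 20 genes, which were chosen by their ratio. The same holds for 879 of all 905 genes called higher and 205 of all 213 called lower.

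The promoters of the genes of highest ratio were read for the motif TGANTCA, which is bound by AP-1, the dimer of Fos and Jun proteins. The motif was chosen because Mmp3 is a known AP-1 target and the AP-1 subunit genes Fos and Junb were called here. A match in Mmp3 was thus foreseen, and whether AP-1 acts on these genes was not tested. The window ran from 250 bases before to 50 bases after the start of the gene in RefSeq (GRCm38.p6), and the motif reads the same on both strands. Of the 10 genes 9 had an entry, and 3 of the 9 held the motif (Mmp3, Tnfaip6 and Igf1), against 7.81% of all 32851 promoters in the table. Of the genes with the lowest ratio, 1 of 8 promoters from 7 genes held it. The motif TTNCNNAA of C/EBP factors (both strands), known to drive serum amyloid genes, was in 40.7% of all promoters. It was in 5 of the 9 and in 3 of the 8 of the lowest genes, with 4 matches in Saa3. A match in Saa3 was thus foreseen, and how many promoters hold as many matches was not counted. The DR1 motif of PPAR and RXR dimers, a spaced direct repeat searched in its exact consensus form on both strands, was in 0.0396% of all promoters, in 0 of the 9 and in 0 of the 8. The promoters of the 3 genes with TGANTCA and of Saa3 are printed 5′ to 3′ on the strand of the gene with the matches in capitals (TGANTCA in the first 3, TTNCNNAA in Saa3), and a match is a run of letters, not a site shown to be bound.
Mmp3, chr9:7445572-7445871, plus strand: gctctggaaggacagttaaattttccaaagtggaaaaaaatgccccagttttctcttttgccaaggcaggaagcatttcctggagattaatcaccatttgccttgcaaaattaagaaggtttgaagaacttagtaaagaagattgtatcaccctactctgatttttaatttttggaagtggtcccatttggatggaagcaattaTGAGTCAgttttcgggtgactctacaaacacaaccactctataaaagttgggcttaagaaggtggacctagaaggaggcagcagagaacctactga
Tnfaip6, chr2:52037863-52038162, plus strand: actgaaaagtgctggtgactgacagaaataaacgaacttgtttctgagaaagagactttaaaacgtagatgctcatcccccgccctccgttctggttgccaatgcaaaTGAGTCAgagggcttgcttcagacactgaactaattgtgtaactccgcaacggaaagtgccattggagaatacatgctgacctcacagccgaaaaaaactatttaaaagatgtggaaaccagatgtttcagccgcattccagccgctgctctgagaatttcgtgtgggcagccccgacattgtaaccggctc
Igf1, chr10:87860861-87861160, plus strand: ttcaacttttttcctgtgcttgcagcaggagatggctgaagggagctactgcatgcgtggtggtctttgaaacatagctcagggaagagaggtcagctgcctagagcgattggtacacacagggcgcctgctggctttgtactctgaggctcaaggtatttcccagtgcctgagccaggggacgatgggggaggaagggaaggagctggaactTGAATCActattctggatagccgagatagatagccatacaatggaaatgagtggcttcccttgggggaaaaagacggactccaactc
Saa3, chr7:46715627-46715926, minus strand: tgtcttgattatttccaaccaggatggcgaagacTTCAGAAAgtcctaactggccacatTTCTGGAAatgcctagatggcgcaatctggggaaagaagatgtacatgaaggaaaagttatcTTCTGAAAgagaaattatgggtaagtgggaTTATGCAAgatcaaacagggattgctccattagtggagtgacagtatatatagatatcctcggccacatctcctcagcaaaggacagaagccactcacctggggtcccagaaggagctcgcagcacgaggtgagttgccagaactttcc

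Of the 10 genes with the lowest ratios 4 belong to the list of fat cell genes described further on, namely Thrsp, Adipoq, Cidec and Retn. Cyp2e1, a cytochrome P450 enzyme of liver that is also expressed in fat, had 9.68, 9.02 and 8.85 in DMM pools, 10.03, 10.01 and 10.13 in sham 4-week pools and 12.11, 11.65 and 12.04 in time 0 pools. Its ratio of DMM to time 0 was -2.75 ± 0.44 (adjusted p = 0.000746), and the DMM pools lay below the sham pools, which lay below the time 0 pools. Thrsp, a regulator of fatty acid synthesis, had 8.81, 8.22 and 8.44 in DMM pools, 9.93, 9.03 and 9.49 in sham 4-week pools and 11.68, 10.83 and 10.59 in time 0 pools (ratio -2.54 ± 0.40, adjusted p = 0.000565). Adipoq, which encodes the fat cell hormone adiponectin, had 11.59, 10.97 and 11.24 in DMM pools, 12.14, 12.24 and 12.09 in sham 4-week pools and 13.02, 12.65 and 12.87 in time 0 pools (ratio -1.58 ± 0.21, adjusted p = 0.000172). The groups were again ordered DMM, sham, time 0 with no overlap.

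The ratio was -1.95 ± 0.16 for Ces1d, a lipid hydrolase of fat, and -1.74 ± 0.20 for Cidec, a protein of the lipid droplet (adjusted p = 1.38e-06 and 7.07e-05). Fasn, the fatty acid synthase, had a ratio of -1.48 ± 0.22 and Retn, which encodes resistin, of -1.33 ± 0.14 (adjusted p = 0.000444 and 4.34e-05). Col10a1, the collagen of hypertrophic cartilage, fell with 10.16, 9.93 and 10.68 in DMM pools, 9.75, 9.52 and 10.40 in sham 4-week pools and 11.85, 11.88 and 11.77 in time 0 pools (ratio -1.58 ± 0.34, adjusted p = 0.00603). The DMM and sham pools of Col10a1 overlapped, and with the Gapdh ratio as a covariate it was not called. The remaining genes were Tmem45b (ratio -1.99 ± 0.26, adjusted p = 0.000172) and Ifi27l2a, an interferon-induced gene (ratio -1.34 ± 0.24, adjusted p = 0.00157). The calls of these 10 genes were kept whichever of the 6 pools was left out.

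The comparison was also described by 35 lists of genes for tissues, cell types and pathways, of which 522 of 634 entries were tested. The share of members called is read against the 7.87% higher and 1.85% lower of all genes. Counts of members whose DMM pools all lay above or below the time 0 pools are read against 17.5% and 9.65% of all genes. A list count above 0 that moved by over 1.5 times with 1 pool left out is given with that pool. In sham 4-week pools, which share the time 0 pools with this comparison, 54 of the 11503 genes were higher than at time 0 (0.469%) and 64 lower (0.556%).

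**Figure D3:**
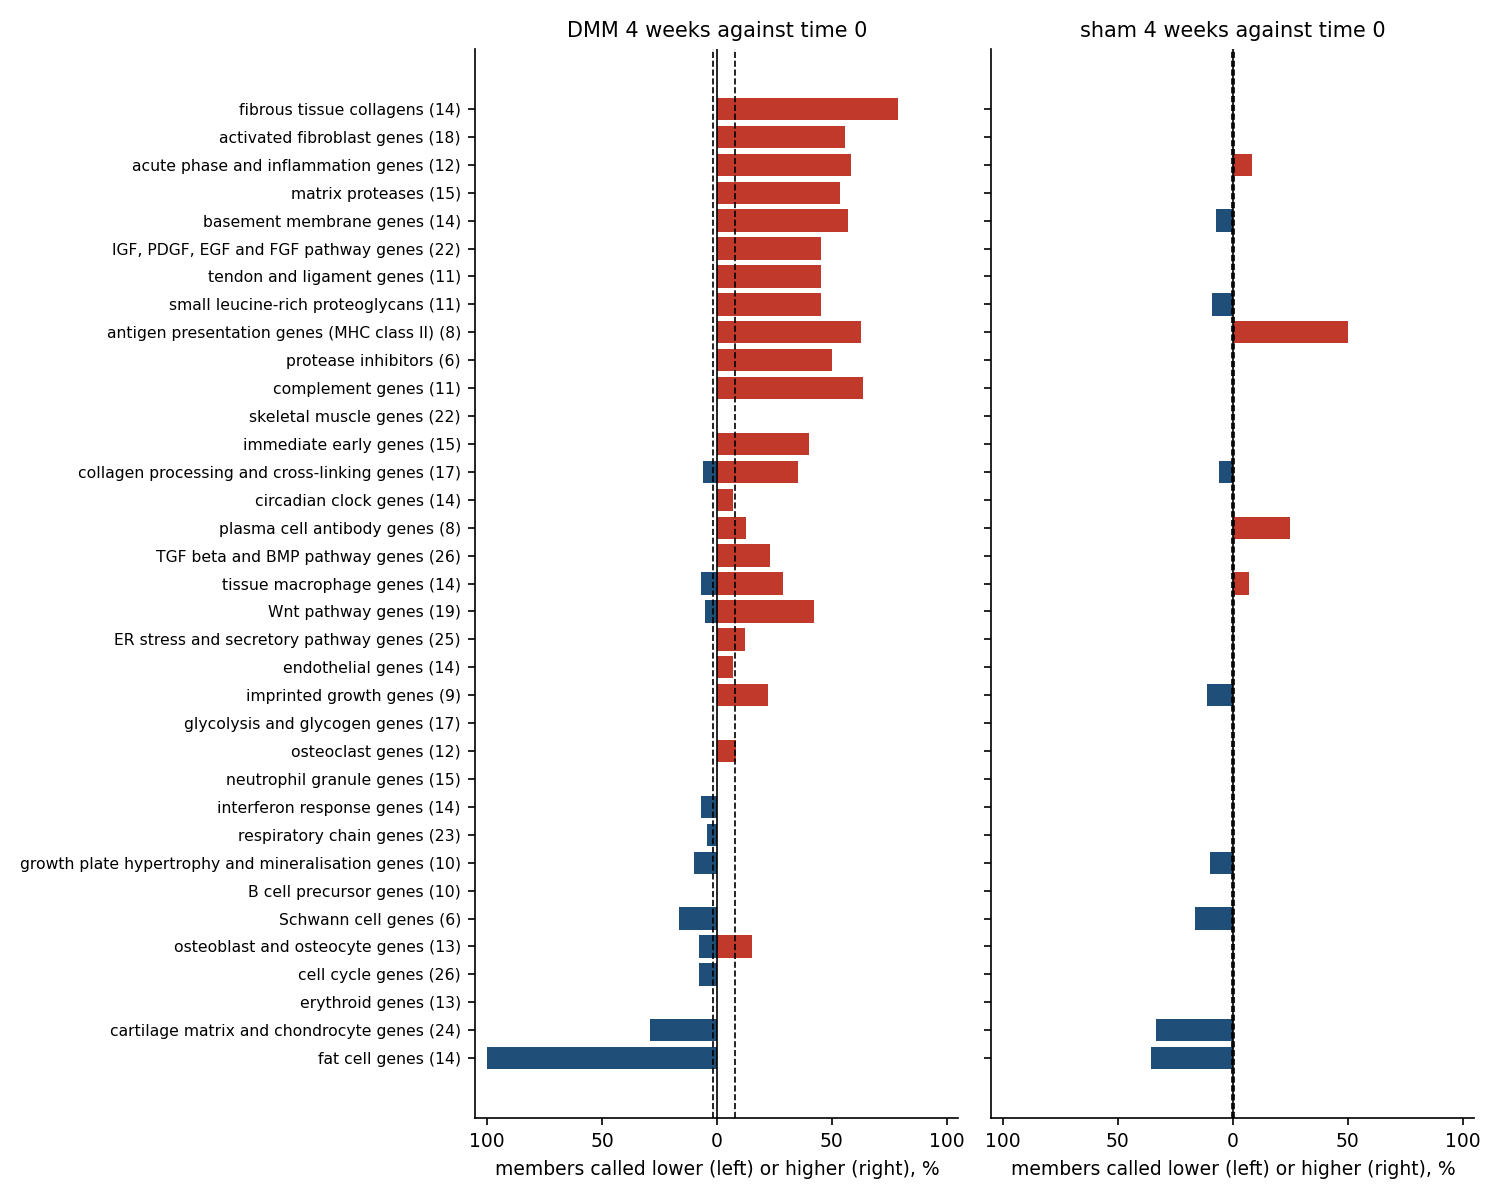
Percentage of the tested members of each list called higher (red, right) or lower (blue, left) than at time 0, for DMM 4 weeks (left panel) and sham 4 weeks (right panel), with the number of tested members in parentheses. Lists are ordered by the median ratio of DMM to time 0, and dashed lines mark the percentage of all 11503 genes. Fibrous tissue collagens stand at the top with 11 of 14 higher in DMM joints, and fat cell genes at the bottom with 14 of 14 lower.

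Most fibrous tissue collagens rose in DMM joints. Of the 14 tested members 11 were higher and 0 lower, the 3 DMM pools lay above the 3 time 0 pools for 14 of 14, and the median ratio was 0.90 against -0.01 over all genes. The count was 8 without DMM pool 2, without DMM pool 3 or without time 0 pool 2, and 10 with the Gapdh ratio as a covariate. Col14a1, a collagen that sits on the surface of fibrils, had 11.87, 12.45 and 12.50 in DMM pools, 10.97, 10.17 and 11.17 in sham 4-week pools and 10.65, 9.92 and 10.19 in time 0 pools (ratio 2.02 ± 0.27, adjusted p = 0.000173). Col8a2, a short-chain collagen of vessels and cornea, had a ratio of 1.42 ± 0.25 (adjusted p = 0.00138). Col3a1, the chain of type III collagen of loose and healing tissue, had 14.91, 15.41 and 15.34 in DMM pools against 14.42, 14.19 and 14.21 in time 0 pools (ratio 0.94 ± 0.20, adjusted p = 0.00482). Col1a2, a chain of type I collagen of bone and ligament, had 15.34, 15.41 and 15.55 in DMM pools against 15.30, 15.24 and 15.33 in time 0 pools and was not called (ratio 0.14 ± 0.10, adjusted p = 0.411). In sham 4-week joints 0 of the 14 collagens were called against time 0, with a median ratio of -0.12.

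**Figure D4:**
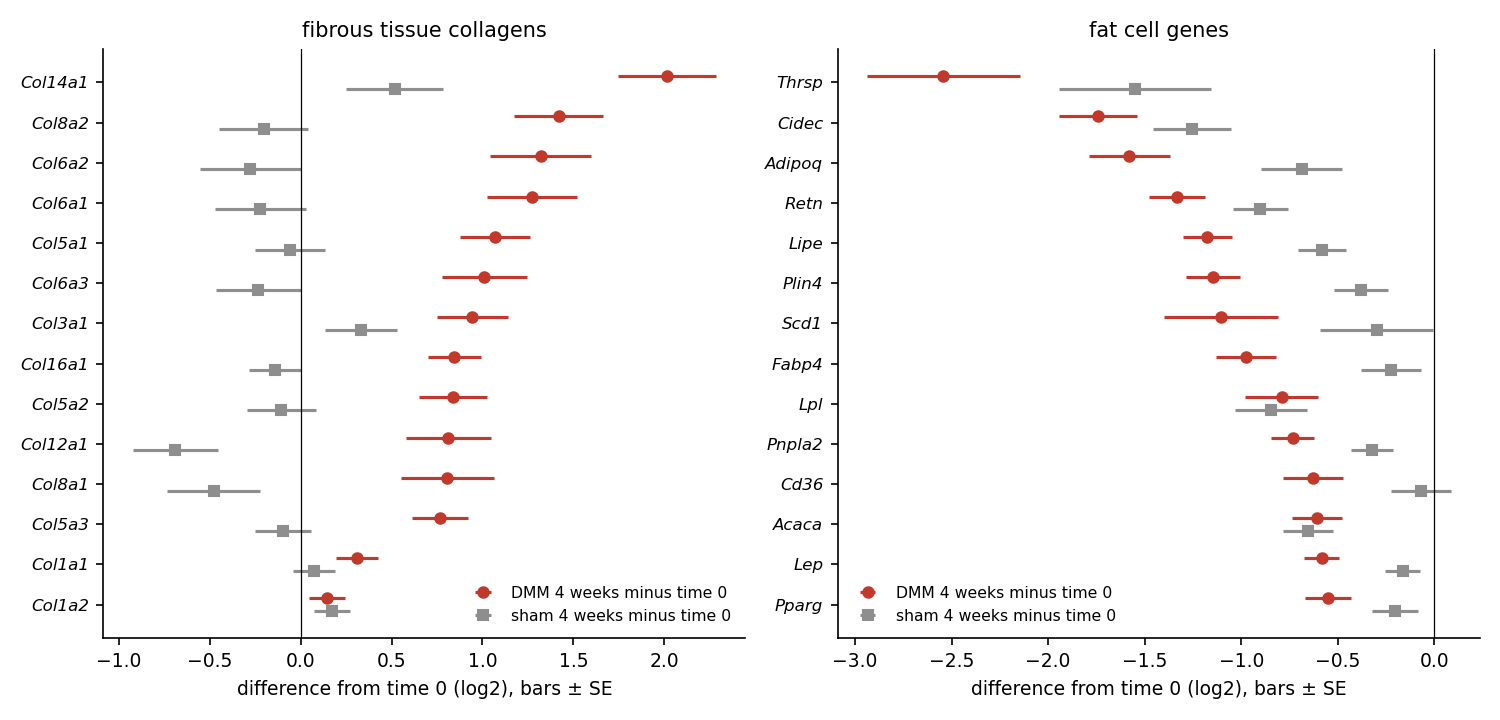
Difference from time 0 (log2, horizontal, bars ± SE of the fit) of the 14 fibrous tissue collagens (left) and the 14 fat cell genes (right) in DMM 4-week joints (red circles) and sham 4-week joints (grey squares). Collagen differences lie at 0.14 to 2.02 in DMM joints, whereas those of fat cell genes lie at -2.54 to -0.55. Both differences of a gene share the 3 time 0 pools.

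The genes of enzymes and chaperones that process and cross-link collagen also included more higher than lower members. Of 17 collagen processing and cross-linking genes 6 were higher and 1 lower, with a median ratio of 0.31, and the count of higher genes was 1 without DMM pool 2 or time 0 pool 2, 2 without DMM pool 3, 3 without time 0 pool 3 and 4 with the Gapdh ratio as a covariate. Loxl1, a lysyl oxidase that cross-links elastin and collagen, had 10.75, 11.35 and 11.21 in DMM pools against 10.09, 9.71 and 9.86 in time 0 pools (ratio 1.22 ± 0.20, adjusted p = 0.000915). Pcolce, which helps to cleave the end of procollagen, rose by 0.90 ± 0.24 (adjusted p = 0.0211) and its relative Pcolce2 fell by 0.63 ± 0.17 (adjusted p = 0.0246). The call of Pcolce was lost without DMM pools 2 or 3, without time 0 pools 2 or 3 and with the Gapdh ratio as a covariate. That of Pcolce2 was lost without DMM pool 2 and without time 0 pools 1 or 3. Serpinh1, the collagen chaperone of the endoplasmic reticulum, had 12.67, 13.19 and 13.26 in DMM pools against 12.99, 12.67 and 12.84 in time 0 pools, and the groups overlapped.

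Of 14 basement membrane genes 8 were higher and 0 lower (median ratio 0.59), with counts of 4 without DMM pool 2, 5 without DMM pool 3 or time 0 pool 2 and 7 with the Gapdh ratio as a covariate. Lamb1, a laminin chain, had 10.49, 11.62 and 11.11 in DMM pools, 9.66, 9.30 and 9.75 in sham 4-week pools and 9.71, 9.20 and 9.41 in time 0 pools (ratio 1.63 ± 0.25, adjusted p = 0.000504). Col18a1, a basement membrane collagen, had a ratio of 1.31 ± 0.22 (adjusted p = 0.00115). Sparc, a collagen-binding glycoprotein abundant in bone, had 15.06, 15.17 and 15.29 in DMM pools against 15.06, 15.00 and 15.09 in time 0 pools, with a ratio of 0.12 ± 0.10 (adjusted p = 0.482).

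Of 11 small leucine-rich proteoglycans, which bind collagen fibrils and control their width, 5 were higher and 0 lower (median ratio 0.50; 3 without DMM pools 2 or 3). Aspn, or asporin, had 12.30, 12.82 and 12.91 in DMM pools against 11.23, 10.98 and 10.89 in time 0 pools (ratio 1.64 ± 0.26, adjusted p = 0.000746). Kera, or keratocan, rose by 1.84 ± 0.39 (adjusted p = 0.00615), and this call was lost without DMM pool 3. Bgn, or biglycan, had a ratio of 0.71 ± 0.15 (adjusted p = 0.00662), which was lost without DMM pool 2, and Dcn, or decorin, was not called at 0.39 ± 0.12 (adjusted p = 0.0566). Of 11 tendon and ligament genes 5 were higher and 0 lower (median ratio 0.51; 3 without DMM pool 3 or time 0 pool 2), among them Tnmd, Kera and Fn1. Fn1, which encodes fibronectin, rose by 0.62 ± 0.15 (adjusted p = 0.0158), a call that was lost without DMM pool 2 or time 0 pool 2.

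Genes of activated fibroblasts, the cells that lay down scar and granulation tissue, were higher in 10 of 18 and lower in 0 (median ratio 0.72). The count was 6 without DMM pool 2, 7 without time 0 pool 2 and 8 with the Gapdh ratio as a covariate. Pdpn, or podoplanin, a marker of synovial lining fibroblasts, had 10.58, 11.99 and 11.11 in DMM pools, 9.99, 9.71 and 10.23 in sham 4-week pools and 9.66, 9.30 and 9.54 in time 0 pools (ratio 1.73 ± 0.28, adjusted p = 0.000746). Lrrc15, a membrane protein of activated fibroblasts, had a ratio of 1.64 ± 0.28 (adjusted p = 0.00146). Postn, or periostin, a matrix protein of the periosteum and ligaments, had 12.50, 13.34 and 13.57 in DMM pools against 11.65, 11.67 and 11.52 in time 0 pools (ratio 1.53 ± 0.29, adjusted p = 0.00252). Ccn2, the connective tissue growth factor, had 13.72, 14.01 and 13.77 in DMM pools against 13.79, 13.22 and 13.61 in time 0 pools, which overlapped (adjusted p = 0.401).

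Of 15 matrix proteases 8 were higher and 0 lower (median ratio 0.63), with 4 without DMM pool 2, DMM pool 3 or time 0 pool 2 and 4 with the Gapdh ratio as a covariate. Besides Mmp3, the gelatinase Mmp2 had 12.70, 13.44 and 13.24 in DMM pools, 11.99, 10.90 and 11.91 in sham 4-week pools and 11.44, 11.13 and 11.17 in time 0 pools (ratio 1.88 ± 0.28, adjusted p = 0.000444). Mmp13, the collagenase of hypertrophic chondrocytes and osteoblasts that cleaves type II collagen, had 13.68, 14.03 and 14.11 in DMM pools, 13.22, 13.13 and 13.17 in sham 4-week pools and 13.37, 13.43 and 13.75 in time 0 pools. Its DMM and time 0 pools overlapped and it was not called (ratio 0.42 ± 0.18, adjusted p = 0.162), while its DMM pools lay above the sham pools by 0.77 ± 0.18 (adjusted p = 0.00676). Mmp9, the gelatinase of osteoclasts and neutrophils, was not called (ratio -0.22 ± 0.10, adjusted p = 0.203).

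Of 6 protease inhibitors 3 were higher and 0 lower, and the count was 1 without DMM pools 2 or 3, without time 0 pools 2 or 3 and with the Gapdh ratio as a covariate. Timp1, a tissue inhibitor of metalloproteinases, had 11.50, 13.31 and 12.19 in DMM pools, 10.53, 10.21 and 10.68 in sham 4-week pools and 11.17, 10.52 and 10.86 in time 0 pools. Its ratio to time 0 was 1.49 ± 0.40 (adjusted p = 0.0258), and the call was lost without DMM pools 2 or 3, without time 0 pools 2 or 3 and with the Gapdh ratio as a covariate. Timp2 had 13.15, 13.53 and 13.56 in DMM pools against 12.70, 12.28 and 12.52 in time 0 pools (ratio 0.91 ± 0.17, adjusted p = 0.0026), and 5 of its 5 tested probe sets were called higher. Timp3, the inhibitor bound to the matrix, was not called (ratio -0.23 ± 0.17, adjusted p = 0.452).

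Among genes of growth factor pathways, the list of IGF, PDGF, EGF and FGF genes had 10 of 22 higher and 0 lower (median ratio 0.51; 6 without DMM pool 2 or time 0 pool 2, 7 with the Gapdh ratio as a covariate). Besides Igf1, the receptor Egfr had 10.13, 10.61 and 10.69 in DMM pools against 9.89, 9.08 and 9.32 in time 0 pools (ratio 1.05 ± 0.23, adjusted p = 0.00709). For Egfr 2 of 4 tested probe sets were called, and the call was lost without time 0 pool 2. Igfbp7, an IGF-binding protein of vessels and stroma, had a ratio of 0.75 ± 0.16 (adjusted p = 0.00592), lost without DMM pool 2, while Igfbp5, which binds IGF in bone, was not called (ratio 0.39 ± 0.15, adjusted p = 0.128).

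Of 19 Wnt pathway genes 8 were higher and 1 lower (median ratio 0.11; 5 higher without DMM pools 2 or 3 or time 0 pool 2, 6 with the Gapdh ratio as a covariate). The called members that were named by the rule encode secreted Wnt inhibitors or a relative of them, and the remaining called members are not described. Sfrp2 had 10.79, 10.82 and 11.63 in DMM pools, 9.65, 9.21 and 9.98 in sham 4-week pools and 9.17, 9.05 and 8.92 in time 0 pools (ratio 2.03 ± 0.22, adjusted p = 4.92e-05). Sfrp4 had 11.30, 11.36 and 11.39 in DMM pools against 10.62, 10.27 and 10.62 in time 0 pools (ratio 0.85 ± 0.12, adjusted p = 0.000223), and Dkk3, a relative of the dickkopf inhibitors, rose by 1.52 ± 0.37 (adjusted p = 0.0142). The call of Dkk3 was lost without DMM pools 2 or 3 and without time 0 pool 2. Sfrp5, a fat cell product, fell by 0.43 ± 0.08 (adjusted p = 0.00156).

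Of 26 genes of the TGFβ and BMP pathway 6 were higher and 0 lower (median ratio 0.17; 4 without DMM pools 2 or 3 or time 0 pool 2, 5 with the Gapdh ratio as a covariate). Fstl1, a follistatin-like protein of stromal cells, had 12.71, 13.41 and 13.16 in DMM pools, 12.20, 11.58 and 12.13 in sham 4-week pools and 11.93, 11.41 and 11.79 in time 0 pools (ratio 1.39 ± 0.21, adjusted p = 0.000446). Ltbp2, a latent TGFβ-binding protein of elastic fibres, had a ratio of 0.92 ± 0.19 (adjusted p = 0.00418). Grem1, a BMP antagonist of cartilage and bone, was not called (ratio -0.46 ± 0.17, adjusted p = 0.0937).

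Of 12 acute phase and inflammation genes 7 were higher and 0 lower (median ratio 0.71). The mean level over the list was 10.51, 11.75 and 10.59 in DMM pools, 10.29, 10.08 and 10.36 in sham 4-week pools and 9.97, 9.82 and 9.81 in time 0 pools, so that DMM pool 2 stood above the other DMM pools. The count was 3 without DMM pool 2 and 4 with the Gapdh ratio as a covariate. Lcn2, or lipocalin 2, a product of neutrophils and inflamed stroma, had 14.16, 14.36 and 14.08 in DMM pools against 14.32, 14.23 and 14.13 in time 0 pools (adjusted p = 0.915), and Cxcl12, the chemokine that keeps stem cells in marrow, was not called (ratio 0.30 ± 0.11, adjusted p = 0.0969).

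Complement genes were higher in 7 of 11 and lower in 0 (median ratio 0.36), with 4 without DMM pool 2 and 5 with the Gapdh ratio as a covariate. In sham 4-week joints 0 of the 11 were called against time 0, but the median ratio was 0.31. Against sham 4-week joints, 5 of the 11 were higher and 1 lower in DMM joints. C1s1, a protease of the first complement component, had 10.50, 11.35 and 10.78 in DMM pools, 9.75, 9.12 and 10.08 in sham 4-week pools and 9.28, 9.01 and 9.18 in time 0 pools (ratio 1.72 ± 0.22, adjusted p = 0.000154). C1ra, the partner protease, had a ratio of 1.40 ± 0.21 and Serping1, which inhibits both, of 1.12 ± 0.19 (adjusted p = 0.000414 and 0.00108).

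Of 14 tissue macrophage genes 4 were higher and 1 lower (median ratio 0.17; 2 higher without DMM pool 2, time 0 pool 2 or with the Gapdh ratio as a covariate). In sham 4-week joints 1 of the 14 was higher and 0 lower than at time 0, with a median ratio of 0.11. Ms4a7, a membrane protein of macrophages, had 10.51, 10.85 and 10.90 in DMM pools against 9.87, 10.05 and 10.05 in time 0 pools (ratio 0.77 ± 0.14, adjusted p = 0.00259). Cd163, the haemoglobin scavenger receptor of resident macrophages, had 9.39, 9.14 and 9.56 in DMM pools, 9.62, 9.91 and 10.26 in sham 4-week pools and 10.50, 10.27 and 10.07 in time 0 pools (ratio -0.92 ± 0.17, adjusted p = 0.00268). Lyz2, the lysozyme of macrophages and neutrophils, was not called (ratio 0.02 ± 0.10, adjusted p = 0.929).

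Antigen presentation genes of MHC class II were higher in 5 of 8 DMM members (median ratio 0.41) and in 4 of 8 sham 4-week members (median ratio 0.50). H2-Ab1 had 11.74, 11.59 and 12.09 in DMM pools, 11.78, 11.70 and 11.92 in sham 4-week pools and 11.32, 11.27 and 11.23 in time 0 pools (DMM to time 0 0.54 ± 0.13, adjusted p = 0.0111). H2-Aa had a ratio of 0.53 ± 0.13 (adjusted p = 0.0166). The calls of H2-Ab1 and H2-Aa were lost without DMM pool 3, without time 0 pool 2 and with the Gapdh ratio as a covariate. That of H2-Aa was also lost without time 0 pool 3. The DMM count was 0 without DMM pool 3, 1 without time 0 pool 2, 2 without time 0 pool 3 and 1 with the Gapdh ratio as a covariate. Of 8 plasma cell antibody genes 1 was higher, Jchain, the chain that joins IgA and IgM, with 12.26, 12.56 and 12.44 in DMM pools, 12.98, 12.60 and 12.72 in sham 4-week pools and 11.48, 11.60 and 11.62 in time 0 pools (ratio 0.86 ± 0.15, adjusted p = 0.00186).

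**Figure D5:**
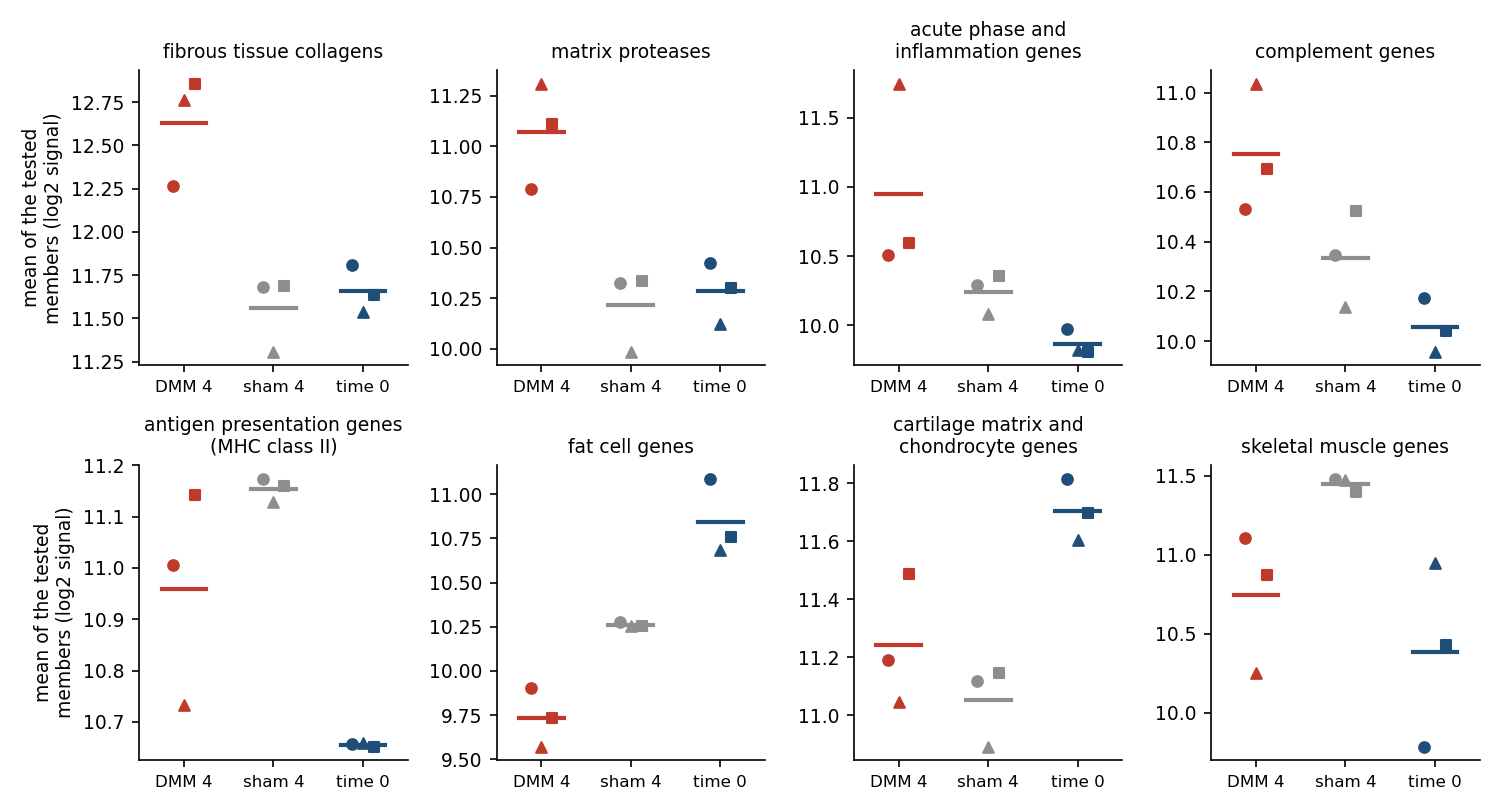
Mean level over the tested members of 8 lists (log2 signal, vertical) in each pool of DMM 4 weeks (red), sham 4 weeks (grey) and time 0 (blue). Circles, triangles and squares are pools 1, 2 and 3, and lines are group means. DMM pool 2 is the highest of its group for matrix protease, acute phase and complement genes. It is the lowest for MHC class II, fat cell, cartilage and skeletal muscle genes and lies between the others for fibrous tissue collagens. Axes start at different values.

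Of 15 immediate early genes, which are induced within minutes by stress, growth factors or load, 6 were higher and 0 lower (median ratio 0.33; 4 without DMM pool 3, time 0 pool 3 or with the Gapdh ratio as a covariate). Fos, a subunit of AP-1, had 10.53, 10.97 and 11.95 in DMM pools, 9.98, 9.90 and 9.71 in sham 4-week pools and 10.08, 9.97 and 9.68 in time 0 pools (ratio 1.24 ± 0.29, adjusted p = 0.0117). Its call was lost without DMM pool 3 or time 0 pool 3, and DMM pool 3 was the highest. Junb, another AP-1 subunit, had 9.89, 10.64 and 10.28 in DMM pools against 9.46, 9.50 and 9.38 in time 0 pools (ratio 0.82 ± 0.16, adjusted p = 0.00269). Of 14 circadian clock genes 1 was higher (2 without DMM pool 1), Bhlhe40, a repressor of the clock that also responds to hypoxia (ratio 0.76 ± 0.14, adjusted p = 0.00212), and Dbp, an output gene of the clock, was not called (ratio 0.78 ± 0.47, adjusted p = 0.337), with time 0 pools at 9.23, 9.91 and 10.56.

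Of 24 cartilage matrix and chondrocyte genes 7 were lower and 0 higher in DMM joints (median ratio -0.54), and the DMM pools lay below the time 0 pools for 14 of 24. In sham 4-week joints 8 of 24 were lower and 0 higher than at time 0 (median ratio -0.60). The DMM count was 3 without DMM pool 2, 4 without time 0 pools 1 or 3 and 4 with the Gapdh ratio as a covariate. Cytl1, a secreted protein of chondrocytes, had 12.28, 12.08 and 11.96 in DMM pools, 13.50, 13.36 and 13.08 in sham 4-week pools and 13.59, 13.08 and 13.49 in time 0 pools (ratio to time 0 -1.28 ± 0.17, adjusted p = 0.000208). It was thus low in the DMM pools, while the sham pools overlapped with time 0. Col9a3, a chain of type IX collagen, had 10.36, 9.88 and 10.80 in DMM pools, 10.13, 9.67 and 10.44 in sham 4-week pools and 11.55, 11.29 and 11.28 in time 0 pools (ratio -1.02 ± 0.26, adjusted p = 0.0182). This call was lost without DMM pool 2, without time 0 pools 1 or 2 and with the Gapdh ratio as a covariate. Prg4, which encodes the lubricant lubricin of synovial lining and superficial cartilage, had 14.82, 15.38 and 14.71 in DMM pools against 14.73, 14.44 and 14.66 in time 0 pools and was not called (adjusted p = 0.184). Comp, the cartilage oligomeric matrix protein, was not called either (ratio 0.30 ± 0.17, adjusted p = 0.297).

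Of 10 genes of growth plate hypertrophy and mineralisation 1 was lower, Col10a1 (0 when the Gapdh ratio was a covariate), and Ibsp, or bone sialoprotein, was not called (ratio 0.12 ± 0.15, adjusted p = 0.686). Of 13 osteoblast and osteocyte genes 2 were higher, Postn and Cthrc1, both also made by activated fibroblasts, and 1 was lower. The count of higher members was 1 without DMM pools 2 or 3, without time 0 pools 2 or 3 and with the Gapdh ratio as a covariate, which also left 0 lower. Cthrc1, a secreted protein of healing tissue, had 11.31, 11.97 and 12.33 in DMM pools, 10.48, 9.74 and 10.24 in sham 4-week pools and 10.68, 10.54 and 10.48 in time 0 pools (ratio 1.30 ± 0.35, adjusted p = 0.0251). Its call was lost without DMM pools 2 or 3, without time 0 pools 2 or 3 and with the Gapdh ratio as a covariate. Sost, which encodes sclerostin, the osteocyte inhibitor of bone formation, had 10.24, 10.54 and 10.25 in DMM pools, 10.99, 11.25 and 10.70 in sham 4-week pools and 10.98, 10.78 and 11.06 in time 0 pools. Its ratio to time 0 was -0.59 ± 0.18 (adjusted p = 0.0397), the pools did not overlap, and the call was lost whichever of the 6 pools was left out. Of 12 osteoclast genes 1 was higher, Tnfsf11, which encodes RANKL, the signal for osteoclast formation, with 8.31, 9.52 and 8.93 in DMM pools against 8.14, 8.06 and 8.03 in time 0 pools (ratio 0.84 ± 0.26, adjusted p = 0.048). The call of Tnfsf11 was kept without DMM pool 1 and lost whichever of the 5 remaining pools was left out and with the Gapdh ratio as a covariate. Acp5, the acid phosphatase of osteoclasts, was not called (ratio -0.21 ± 0.14, adjusted p = 0.37).

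Fat cell genes were lower in 14 of 14 members, with ratios from -2.54 to -0.55 and a median of -1.04, and the 3 DMM pools lay below the 3 time 0 pools for 14 of 14. The mean level over the list was 9.90, 9.57 and 9.73 in DMM pools, 10.28, 10.25 and 10.26 in sham 4-week pools and 11.09, 10.68 and 10.76 in time 0 pools. With 1 pool left out the count was between 11, without DMM pool 2, and 14, and it was 14 with the Gapdh ratio as a covariate. Fabp4, the fatty acid carrier of fat cells, had 12.87, 12.54 and 12.78 in DMM pools, 13.31, 13.62 and 13.52 in sham 4-week pools and 13.84, 13.56 and 13.73 in time 0 pools (ratio -0.98 ± 0.16, adjusted p = 0.000702), and 4 of its 4 tested probe sets were called lower. Pparg, the master regulator of fat cell formation, had 8.80, 8.64 and 8.75 in DMM pools against 9.52, 9.15 and 9.18 in time 0 pools (ratio -0.55 ± 0.12, adjusted p = 0.00662). Lep, which encodes the hormone leptin, had a ratio of -0.58 ± 0.09 (adjusted p = 0.000547). Scd1, a desaturase of fatty acids, had a ratio of -1.11 ± 0.29 (adjusted p = 0.0231), and its call was lost without DMM pools 2 or 3 and without time 0 pools 1 or 3. In sham 4-week joints 5 of the 14 were lower than at time 0 and 0 higher, with a median ratio of -0.48. How much of the tissue block was fat pad was not measured, and its part in these values was not tested.

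Few genes of marrow, muscle and nerve passed the test against time 0. Of 13 erythroid, 15 neutrophil granule, 10 B cell precursor and 22 skeletal muscle genes 0 were called, with median ratios of -0.34, -0.09, -0.18 and 0.36. Myh4, the fast myosin heavy chain, had 13.17, 13.11 and 13.21 in DMM pools and 12.23, 13.28 and 12.91 in time 0 pools, with 13.82, 13.86 and 13.89 in sham 4-week pools. S100a8, a neutrophil calcium-binding protein, had 15.40, 15.59 and 15.52 in DMM pools against 15.42, 15.40 and 15.47 in time 0 pools. The 26 cell cycle genes had 26 ratios below 0 and a median of -0.30, while 5589 of all 11503 genes had a ratio above 0. Of the 26, 2 were called lower, among them Aurkb, a mitotic kinase, with a ratio of -0.45 ± 0.13 (adjusted p = 0.0318). In sham 4-week joints 0 of the 26 were called against time 0 (median ratio 0.03). Against sham 4-week joints, 10 of the 26 were lower and 0 higher in DMM joints. The cell cycle count was 11 without DMM pool 1, 5 without time 0 pool 1 and 0 without any 1 of the 4 other pools, and it was 16 with the muscle level and 0 with the Gapdh ratio as a covariate. Of 14 endothelial genes 1 was higher, Pecam1, an adhesion molecule between endothelial cells (ratio 0.37 ± 0.09, adjusted p = 0.014), which was lost without DMM pools 2 or 3 and time 0 pool 3, and the endothelial count was 3 without DMM pool 1 and 2 without time 0 pool 1. Of 25 genes of the secretory pathway 3 were higher, with counts of 6 without DMM pool 1, 1 without DMM pool 2 or time 0 pool 3, and 0 without DMM pool 3, without time 0 pool 2 or with the Gapdh ratio as a covariate. Of 23 respiratory chain genes 1 was lower, and 0 were without DMM pools 2 or 3, without time 0 pools 2 or 3 and with the Gapdh ratio as a covariate. Of 17 glycolysis and glycogen genes 0 were called. Of 9 imprinted growth genes 2 were higher, Meg3 and Grb10 (ratios 0.81 ± 0.24 and 0.65 ± 0.18, adjusted p = 0.0443 and 0.0271). The imprinted count was 3 without DMM pool 1, 1 without time 0 pool 1, 0 without any 1 of the other 4 pools and 0 with the Gapdh ratio as a covariate. Of 6 Schwann cell genes 1 was lower, Ncmap, a myelin protein of peripheral nerve, with 8.68, 8.50 and 8.62 in DMM pools, 8.72, 8.56 and 8.52 in sham 4-week pools and 9.41, 9.02 and 9.19 in time 0 pools (ratio -0.61 ± 0.09, adjusted p = 0.000512). Of 14 interferon response genes 1 was lower, Ifi27l2a.

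Whether the change from time 0 differed between DMM and sham joints was tested as the difference between both groups at 4 weeks, which does not use the time 0 pools. DMM joints had 1519 genes higher (13.2%) and 812 lower (7.06%) than sham joints. Fibrous tissue collagens were higher in 12 of 14, activated fibroblast genes in 13 of 18, collagen processing genes in 14 of 17 with 1 lower, and matrix proteases in 10 of 15. Fat cell genes were lower in 9 of 14 and higher in 0, and Adipoq was lower in DMM than in sham pools, with a difference of -0.89 (adjusted p = 0.00676), whereas Fasn differed by -0.12 (adjusted p = 0.721). Of the 24 cartilage genes 2 were higher and 2 lower, and the lower ones included Cytl1 with a difference of -1.20 (adjusted p = 0.000522). Of the 8 MHC class II genes 0 were higher and 2 lower, with a difference of 0.01 for H2-Ab1 (adjusted p = 0.956) and -0.04 for H2-Aa (adjusted p = 0.86). The skeletal muscle list did not overlap between DMM and sham pools, at 10.25 to 11.11 against 11.40 to 11.48, and the count of probe sets called between DMM and sham was 4287, or 3178 with the muscle level as a covariate. It was 1743 without DMM pool 2, 2210 without DMM pool 3 and 1570 without sham pool 2.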

How the data were processed

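RNA pools from the medial compartment of mouse knees had been run on 26 Affymetrix Mouse Genome 430 2.0 arrays. For 45101 probe sets the authors deposited log2 signals, scaled between arrays by their systematic variation normalization. These were not rescaled, and 0 columns were left out. Probe sets with a mean above 7.93, the median of all values, were tested (22513), with 1 coefficient per condition over the 26 arrays (17 residual degrees of freedom), in limma 3.58.1 under R 4.3.3, with Benjamini-Hochberg adjustment over the probe sets tested. A gene is represented by its brightest tested probe set, since 34958 probe sets carry 1 symbol in the array annotation, 932 several and 9211 none, and those with several or none name no gene here. Errors of ratios are standard errors of the fit. The 3 pools per group limit the precision, and 3 against 3 gives a smallest exact p of 0.1. The labels do not say whether pools share a batch.

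Genes named in the text are the 10 highest and 10 lowest ratios among called genes and, from each list described, some of its 2 brightest members, its 2 of largest rise and its 2 of largest fall among members tested. Which of these to describe was chosen with their values seen. The comparison and the 35 lists were chosen with earlier results of these data known, and 583 of 634 entries had their own probe set. The fit was tested on simulated data of 22513 probe sets, 100 of them changed at each size. For DMM 4 weeks against time 0 it recovered 66 changes of 0.5 and 96 of 1, with 5 false calls. Its noise was normal and drawn independently for each probe set and array, with no shift shared by the probe sets of a pool. The false calls are thus no error rate for the real arrays, whose counts moved with single pools. The alternatives were no filter on brightness, the fit of the 2 groups alone, quantile normalization, array weights (gene by gene, since the default did not converge), a replicate block, the mean of the skeletal muscle genes or the Gapdh ratio as a covariate, a prior variance with a trend, each pool left out, and the mean over a gene's probe sets.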

Additional observations from a re-analysis of the deposited data

Results flagged for a closer look

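For 58 of the 91 genes named in the report, the test of DMM against sham joints at 4 weeks passed an adjusted p of 0.05 (limma), so their change from time 0 differed between both operations. The difference is given here as the log2 signal of DMM minus sham (n = 3 pools each), and 47 were higher and 11 lower in DMM joints. Over all 11503 genes, 1519 (13.2%) were higher and 812 (7.06%) lower. Genes were named in part by the ratio of the same DMM pools to time 0, so the choice itself favours a pass of this test. The mean skeletal muscle level did not overlap between the DMM and sham pools. Among collagens and other matrix genes, the difference was 2.20 for Tnmd, 1.81 for Kera, 1.62 for Col8a2, 1.50 for Lamb1, 1.50 for Col14a1, 1.22 for Aspn, 1.16 for Col18a1, 1.01 for Bgn, 0.61 for Col3a1 and 0.51 for Fn1. Among genes that process or cut matrix, the difference was 3.26 for Mmp3, 1.86 for Timp1, 1.52 for Mmp2, 1.16 for Pcolce, 1.05 for Loxl1, 0.94 for Serpinh1, 0.77 for Mmp13 and 0.69 for Timp2. Among fibroblast and bone genes, the difference was 1.71 for Cthrc1, 1.47 for Lrrc15, 1.34 for Postn, 1.25 for Pdpn, 1.05 for Tnfsf11 and 0.46 for Ibsp. Among growth factor and pathway genes, the difference was 1.84 for Igf1, 1.47 for Sfrp2, 1.44 for Dkk3, 1.13 for Fstl1, 1.13 for Egfr, 1.12 for Grb10, 0.84 for Meg3, 0.80 for Sfrp4, 0.68 for Ltbp2 and 0.62 for Igfbp7. Among inflammation and complement genes, the difference was 2.75 for Saa3, 2.05 for Tnfaip6, 1.23 for C1s1, 0.94 for C1ra and 0.77 for Serping1. Among other genes, the difference was 2.06 for Angptl1, 1.88 for Chl1, 1.85 for Gpm6b, 1.53 for Fndc1, 1.29 for Fos, 0.68 for Junb, 0.57 for Bhlhe40 and 0.51 for Pecam1. Of the lower ones, it was -1.20 for Cytl1, -0.91 for Tmem45b, -0.89 for Adipoq, -0.87 for Ces1d, -0.75 for Fabp4, -0.64 for Sost, -0.57 for Cd163, -0.55 for Pcolce2, -0.43 for Retn, -0.42 for Lep and -0.35 for Pparg. Groups of 3 pools were too small for a test of single outlying pools.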

How the results depend on the processing

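Without 1 of the 6 pools, the probe sets called between DMM 4 weeks and time 0 numbered 658 to 2950, with 501 to 2076 higher and 131 to 874 lower, and the genes called 415 to 1724. Between DMM and sham at 4 weeks 1570 to 5526 probe sets were called without 1 pool. The cause of these changes was not tested beyond the loss of 1 array. Fitted on the 2 groups alone, which leaves fewer degrees of freedom, 354 probe sets (280 higher, 74 lower) and 220 genes were called against time 0 and 2070 probe sets against sham. Array weights gave 7105 (4026 higher, 3079 lower), 3954 genes and 7480 against sham. The muscle level as a covariate gave 3084 (2226 higher, 858 lower) and 1817 genes, and the Gapdh ratio 770 (630 higher, 140 lower) and 476 genes. Quantile normalization gave 605 lower and 1313 higher. The cause was not tested. Same-numbered DMM and time 0 pools had correlations of -0.218, -0.233 and 0.191 of their deviations from the group means, which show no pairing by replicate number. With 3 pools per group they cannot decide whether pools were paired. The replicate block gave 2070 probe sets, 1201 genes and 4792 probe sets against sham and changed no call of the 71 called genes named in the text. Of these 71 genes, 40 kept their call under every alternative that gives a p-value. The other 31 lost it under at least 1, of which 27 did so with the 2 groups fitted alone. The mean over a gene's probe sets gives no p-value, so no call could be lost under it. With that mean the ratio stayed within 1 SD of the DMM pools for 65 of the 71 genes, whereas that of Angptl1 moved from 2.78 to 1.06. Of 34 counts of list members, 4 stayed within 1.5 times under every alternative run. The ratio changed sign for 3 genes that were not called. For Lcn2 it was 0.012 with the muscle level, 0.14 with the Gapdh ratio and between -0.11 and 0.033 without 1 pool. For Lyz2 it was -0.065 with quantile normalization and between -0.032 and 0.068 without 1 pool, and for Ibsp it was -0.026 as the mean over its probe sets.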

Other observations

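The other weeks of the study place the 4-week values in time, as means of 3 pools (2 for DMM at 2 weeks) with no test made here. Mmp3 averaged 13.23, 13.09, 10.13 and 10.05 in DMM joints at 2, 4, 8 and 16 weeks and 10.76, 9.83, 9.23 and 8.75 in sham joints at these weeks, beside 8.82 at time 0. Saa3 averaged 13.01, 12.55, 8.79 and 8.58 in DMM joints and 11.11, 9.81, 8.94 and 8.76 in sham joints, beside 8.76 at time 0, so that its 8- and 16-week means were close to time 0 in both. Adipoq averaged 11.33, 11.27, 11.76 and 11.70 in DMM joints and 12.21, 12.16, 12.03 and 11.84 in sham joints, beside 12.85 at time 0. Cytl1 averaged 12.09, 12.11, 13.01 and 12.56 in DMM joints and 13.21, 13.31, 13.42 and 13.05 in sham joints, beside 13.39 at time 0. Jchain averaged 11.46, 12.42, 12.67 and 13.10 in DMM joints and 11.94, 12.77, 12.74 and 13.00 in sham joints, beside 11.56 at time 0.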
